A study of Caenorhabditis elegans with 10 samples.

Results

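HPL-1 binding in the intestine of Caenorhabditis elegans L4 larvae is described here from the 1346 genomic intervals that the authors called over GFP-Dam, out of 4583 intervals in the 3 peak lists of the series. Every interval of the HPL-1 list was taken, with no further choice. The assay was DamID-seq, in which a fusion to the bacterial adenine methyltransferase Dam methylates GATC sites near the places it visits, and the methylated fragments are amplified and sequenced. The HPL-1-Dam group came from strain MRS579, which carries HPL-1::Dam in the intestine, and its control from strain BN1051, which carries GFP::Dam in the intestine. HPL-2-Dam in intestine (MRS580) and in hypodermis (MRS578) stand beside it where a value helps to place the profile, the first over the same GFP-Dam intestine control and the second over GFP-Dam in hypodermis (BN561). Each group had 2 libraries, from larvae grown for 48 h at 20 °C, and how many libraries were averaged into a peak list is not given in the sources used here. The driver of the fusions is not given in the sources used here, nor is the depth of any library.

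The HPL-1 list holds 1 averaged profile, so no value below has an error between replicates and no test between groups was possible. Intervals after a percentage are exact (Clopper-Pearson) 95% binomial intervals. They cover counting error only, and neighbouring peaks are not independent. Peak scores and false discovery rates (FDR) are the authors' own, on a score scale the list does not state. Peak lists hold no RNA levels, so the labelled tissue could not be checked by its expressed markers.

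HPL-1 belongs to the HP1 (heterochromatin protein 1) family. HP1 proteins carry a chromodomain that binds histone H3 methylated on lysine 9, a mark of silent chromatin, and a chromoshadow domain through which they pair with each other and with partner proteins. In C. elegans this mark is concentrated on the chromosome arms, which are rich in repeats and fast-evolving gene families and are held at the nuclear periphery. The larval intestine is a tube of large polyploid cells that digests food, stores fat and meets ingested microbes.

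HPL-1 peaks were short and mostly solitary. They covered 955 kb, 0.952% of the genome. The median width was 616 bp, the middle 50% of peaks lay between 432 and 866 bp, and the range was 36 to 4813 bp. Only 24 peaks reached 2 kb, and 87 were under 200 bp. The median score was 0.66, with a range of 0.37 to 1.65. Higher-scoring peaks were somewhat wider: the 337 lowest-scoring peaks had a median width of 523 bp and the 337 highest-scoring 729 bp, and Spearman's rho between width and score was 0.24 over the 1346 peaks, which share the same averaged profile. FDR took 43 distinct values from 1.68e-23 to 0.0367. The 242 peaks at the highest FDR, just inside the authors' threshold of 0.05, had a median score of 0.52 and a median width of 545.5 bp.

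**Figure D1:**
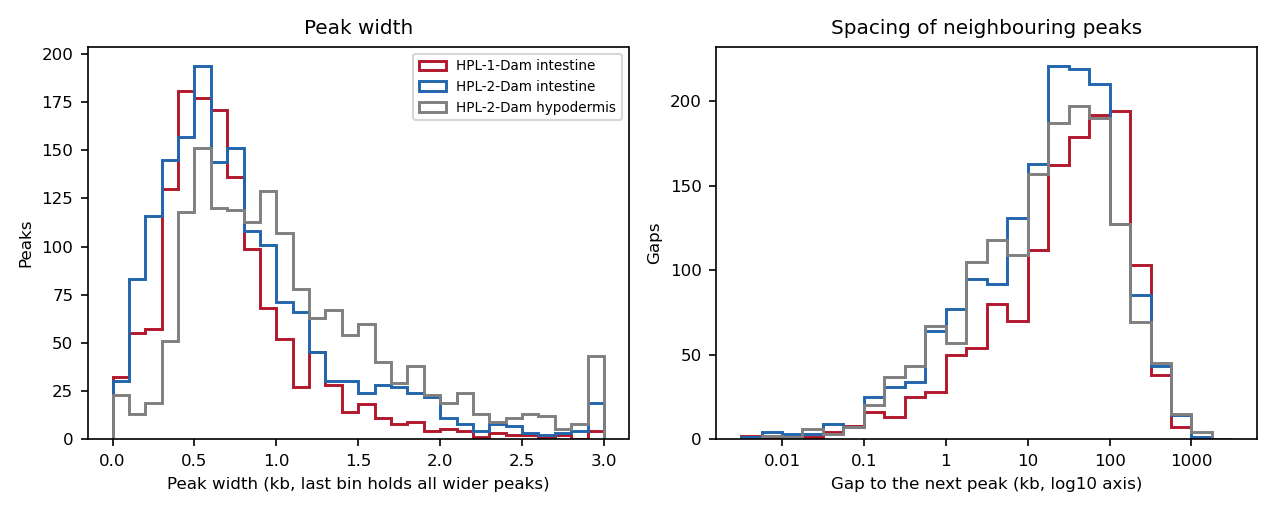
Left, number of peaks by width in kb, with all wider peaks in the last bin. Right, number of gaps by distance to the next peak on the same chromosome in kb, on a log axis. HPL-1-Dam intestine is red, HPL-2-Dam intestine blue and HPL-2-Dam hypodermis grey. HPL-1 peaks have a median width of 616 bp, against 678 and 948 bp in the HPL-2 lists, and lie a median of 36.7 kb apart, against 23.4 and 20.7 kb.

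The highest scores lay over genes of unlike function. A muscle myosin gene led. The top peak, chromosome I 14858011 to 14860156, scored 1.65 and lay inside unc-54, which encodes the major myosin heavy chain of body wall muscle. The next, V 18740449 to 18742166 with a score of 1.63, covered 52.8% of clec-250, a C-type lectin gene. Another lectin gene, clec-238, was touched at an end by the peak at V 16951067 to 16951890, which scored 1.53 and covered 4.76% of its body. A pair of genes of mitochondrial biology followed. The prohibitin gene phb-1, whose product forms a ring complex in the inner mitochondrial membrane, lay under a peak of score 1.51 (I 2071663 to 2072218) that covered 46.5% of it. The mitochondrial stress transcription factor gene atfs-1 held 2 peaks over 68.2% of its body, the higher scoring 1.37.

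Sequence-named genes filled much of the rest of the top 15. C11G6.2 lay under a peak of score 1.59 and F35F11.2 under one of 1.4. The peak of score 1.59 at III 11610527 to 11611805 crossed Y66D12A.1, Y66D12A.30 and Y66A7A.9, whose bodies adjoin or overlap there, so that it cannot be given to a single gene. F55E10.1, a gene of 312 bp, lay wholly under a peak of score 1.57. The heavy spectrin gene sma-1 (score 1.35), the ribosomal S6 kinase gene rskn-1 (1.34) and srap-1 (1.36) held peaks inside long bodies. Of these 15 peaks, 3 lay over no gene at all: V 19275726 to 19278309 (score 1.57), X 3752357 to 3753105 (1.56) and V 8653739 to 8654083 (1.34). The last had its nearest protein-coding neighbours 10.5 kb away, asp-13, and 11.98 kb away, ZC190.4.

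The widest peaks were not the highest. The broadest, 4813 bp at V 17139487 to 17144299, scored 0.9, had the lowest FDR of the list (1.68e-23) and contained the microRNA gene mir-257 and no protein-coding gene. Peaks of 3697 bp over perm-4 (score 0.58) and 2745 bp over nlp-99 and nep-2 (0.76), a neuropeptide-like gene and a neprilysin peptidase gene, stood at the highest FDR, 0.0367. A peak of 3416 bp crossed fdgt-2 and F14E5.8 (score 1.08), and a peak of 2928 bp lay inside mup-4 (0.78). The product of mup-4 is a transmembrane component of the hemidesmosome-like attachments between epidermis and cuticle. No HPL-2 peak of either tissue overlapped perm-4, nlp-99, nep-2, fdgt-2, F14E5.8 or mup-4. Most protein-coding genes had none, since HPL-2 lay over 6.11% of them in intestine and 5.92% in hypodermis.

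In all, HPL-1 peaks overlapped the bodies of 966 of 19971 protein-coding genes, 4.84% (4.54% to 5.14%), which is the background for every gene group below. At an FDR of 0.01 or below, 550 genes, 2.75%, were left, and extending each gene by 1 kb at its ends gave 1384, 6.93%. HPL-2 lay over 6.11% of protein-coding genes in intestine and 5.92% in hypodermis. Protein-coding bodies lay under 1010 of the 1346 peaks (75.04%, 72.6% to 77.3%), and 86 peaks touched more than 1 such gene. A further 127 peaks lay over another kind of gene only, and 209 (15.5%) over no annotated gene. By midpoint, 67.1% of peaks lay inside a protein-coding body. The share of the genome in such bodies was not set beside these values, so they show no preference for genes. Of the 336 peaks without a protein-coding gene, 110 (32.7%) lay within 1 kb of one, 45 were over 5 kb away, and the median distance was 1708 bp.

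More peaks over protein-coding genes lay inside a body than held a gene end. The share that randomly placed peaks would give was not computed, so these counts show no preference for bodies. Of the 1010 peaks over protein-coding genes, 733 (72.6%, 69.7% to 75.3%) lay inside a body and touched neither end. The other 277 (27.4%, 24.7% to 30.3%) held a gene start or end, 18 of them a whole gene. Starts and ends could not be told apart, because the gene table used gives no strand. Peaks that held an end were wider, with a median of 793 bp, against 536 bp for peaks inside bodies, and a wide peak reaches an end more easily. Their median scores were close, 0.69 and 0.65. When an end within 200 bp of a peak was also counted, the share with an end was 39.6%. Midpoints of the 733 interior peaks lay at a median of 0.31 of the gene length from the nearer end, where 0 is the end and 0.5 the middle. The tenth of the gene length next to either end held 6.00% of them and the tenth on either side of the middle 27.1%, but a peak that must fit inside the body cannot have its midpoint at an end.

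Whole-gene cover was rare. Beside F55E10.1, the highest-scoring cases were Y43F8B.28 (score 1.04), DY3.8 (0.96, next to the mitochondrial import gene tin-13, which was covered over 97.6%), Y43F8C.16 (0.93) and the lectin gene clec-95 (0.88). The peak over Y43F8B.28 also reached Y43F8B.18, and the peak over DY3.8 also touched C36B1.11.

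The share of genes bound climbed with gene length, while the share of sequence covered did not. Of genes over 8 kb, 14.7% (12.9% to 16.6%) held a peak, against 2.44% (1.96% to 2.99%) of genes up to 1 kb, and the classes between had 3.4%, 4.48% and 6.76%. The median bound gene was 3338 bp long and the median protein-coding gene 2006 bp. Per length, peaks covered 1.51% of the bodies of genes up to 1 kb, 1.27%, 0.982% and 0.818% in the next classes, and 0.955% over 8 kb. For some gene groups with a median length far from 2006 bp, that length is therefore given beside the count.

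**Figure D2:**
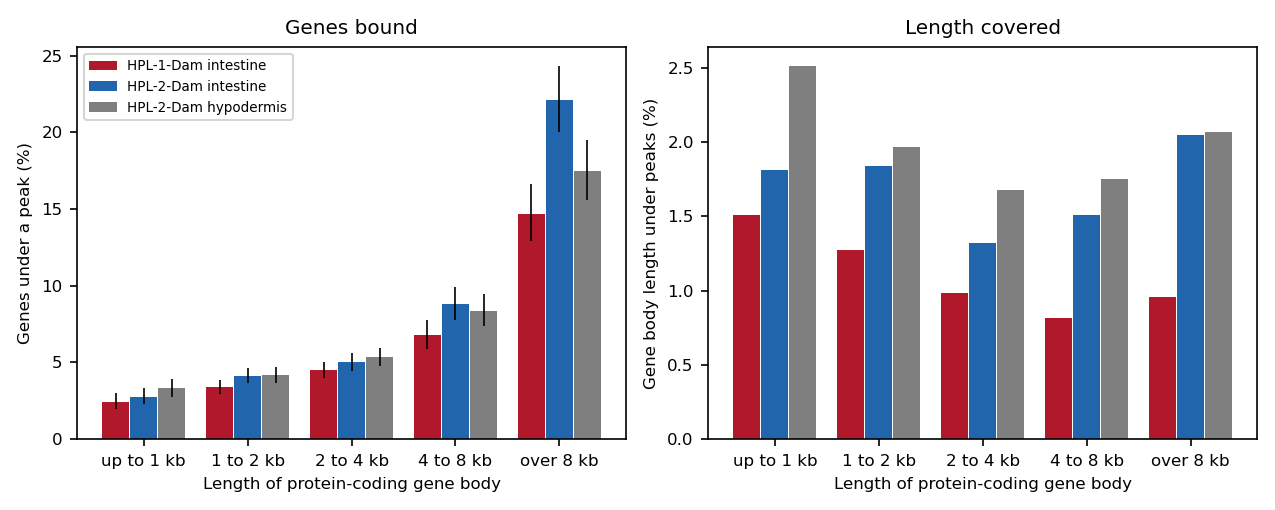
Left, percent of protein-coding genes under at least 1 peak by gene body length, with exact 95% binomial intervals as bars. Right, percent of the summed body length under peaks. HPL-1-Dam intestine (red), HPL-2-Dam intestine (blue) and HPL-2-Dam hypodermis (grey) stand left to right in each class. For HPL-1 the share of genes reaches 14.7% over 8 kb while the covered length stays between 0.818% and 1.51%.

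Repeated binding was found in a minority of bound genes. HPL-1 peaks occurred at least 2 times in 97 protein-coding genes, at least 3 times in 26 and at least 4 times in 7. The ankyrin gene unc-44, whose product organises the membrane skeleton of neurons, had the most, 6 peaks in 29.3 kb with scores of 0.47, 0.48, 0.59, 0.71, 0.84 and 1.23. Twitchin, the giant kinase of the muscle thick filament encoded by unc-22, had 5 peaks in 38.3 kb (0.49, 0.66, 0.75, 0.98 and 1.31). In each gene the scores spanned the list median of 0.66.

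The myosin gene unc-54 differed from them in density, with 4 peaks over 71.7% of its 7.58 kb and every score at 0.9 or above. Each of mlt-11, a gene needed for molting (0.51 to 0.84), the FERM-domain gene frm-1 (0.43 to 0.98), let-805, which encodes the epidermal attachment protein myotactin (0.6 to 0.72), and vab-10, which encodes the cytoskeletal linker spectraplakin (0.61 to 0.83), also held 4. Of the 19 genes with 3 peaks, fasn-1, the fatty acid synthase gene, had the most bases covered, with peaks of score 0.57, 0.84 and 1.19 over 44.3% of its 11.2 kb. No peak of either HPL-2 list lay over fasn-1, which is also so for most protein-coding genes. The gene let-805 had 4 peaks of HPL-1, against 6 of HPL-2 in intestine and 0 of HPL-2 in hypodermis. For unc-22 the counts were 5, against 3 and 8.

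**Figure D3:**
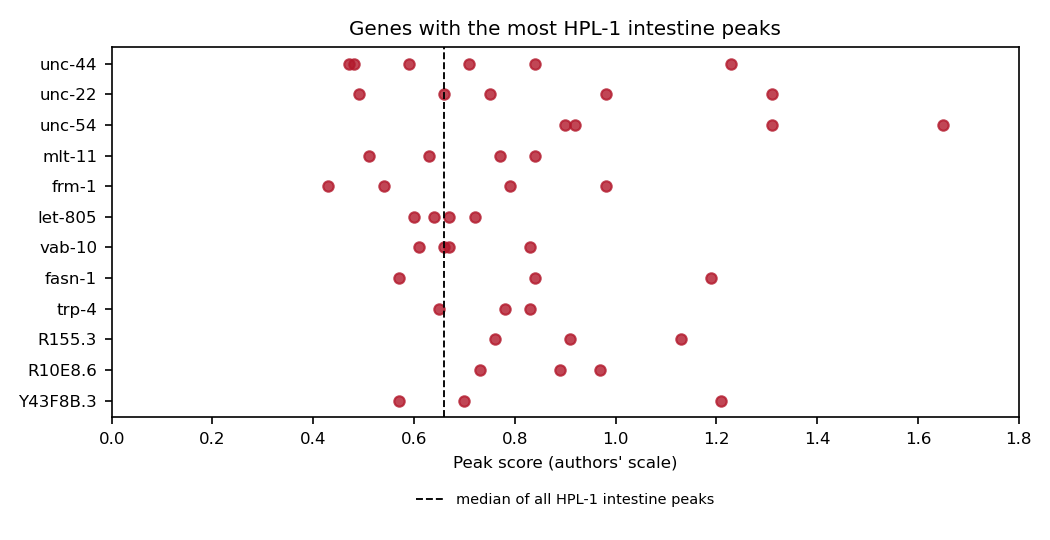
Score of every HPL-1 intestine peak, on the authors' scale, over each of 12 protein-coding genes, ordered from 6 peaks (unc-44) to 3. They are the 7 genes with 4 or more peaks and, of the 19 genes with 3, the 5 with the most bases covered. Each point is a peak and the dashed line is the median of the list, 0.66. All points of unc-54 lie to the right of that line, at 0.9 or above.

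Gene groups were read against the 4.84% of all protein-coding genes, as counts without a test. Of the 30 lists, 16 had a share above it and 14 below. Under both the FDR of 0.01 and the extension by 1 kb, each read against its own background, 11 of the 16 stayed above. Some did so by very few genes. At an FDR of 0.01, antimicrobial genes had 2 of 72 (2.78%, against 2.75%) and lysosomal and gut proteases 1 of 26. Main intervals lay clearly above 4.84% for muscle, cuticlin, hedgehog- and patched-related, MATH and BTB and C-type lectin genes. The collagen interval began at 4.85%. Muscle genes stood highest, with 10 of 42 bound (23.8%, 12.1% to 39.5%), led by unc-54 (1.65), unc-22 (1.31), the ryanodine receptor gene unc-68 (1.1) and the dystrophin gene dys-1 (0.87). Muscle genes are also long, with a median of 5009.5 bp, and the 10 genes held 22 peaks. The median top score of these 10 genes was 0.815, against 0.67 over all bound genes. Of the 966 bound genes, 869 held a single peak, and a top score taken over more peaks is higher by construction. HPL-2 lay over 20 of the 42 muscle genes in intestine and over 20 in hypodermis.

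Lists of cuticle and epidermal genes also had shares above the background. Of the cuticlin and zona pellucida genes, which encode apical extracellular matrix proteins, 6 of 40 were bound (15.0%, 5.71% to 29.8%). These were cutl-26 (0.74), cutl-15 (0.73), cutl-4 (0.67), let-653 (0.61), the fibrillin-related fbn-1 (0.55) and cutl-16 (0.52). At an FDR of 0.01, 2 of the 6 were left (5.00%, against a background of 2.75%). Genes of this list are long, with a median of 4395 bp. Hedgehog- and patched-related genes, which encode secreted and membrane proteins used largely in the epidermis, had 12 of 86 (13.95%, 7.42% to 23.1%). The highest score was that of grd-2 (1.11), followed by grd-11 (0.98), by grd-13, touched at an end (0.87), and by ptr-23 (0.77). Cuticle collagens had 15 of 176 (8.52%, 4.85% to 13.7%) although their median length is only 1220 bp. The peak of col-3 (1.25) covered 2.92% of the gene, that of col-87 (1.11) 16.0%, that of col-94 (0.9) 28.1% and that of col-102 (0.87) 43.3%. HPL-2 in intestine and in hypodermis lay over 80 and 8 of the 176 collagens. It lay over 13 and 5 hedgehog- and patched-related genes, and over 4 and 2 genes of the cuticlin list.

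Large and fast-evolving families varied among themselves. C-type lectins, secreted proteins with carbohydrate-binding folds of which some answer to microbes, had 28 of 239 (11.7%, 7.93% to 16.5%) under 29 peaks, with a median top score of 0.81. Besides clec-250 and clec-238, clec-148 (0.99, 96.6% covered) and clec-149 (0.95, 29.8% covered) led. MATH and BTB genes, adaptors of ubiquitin ligases, had 12 of 89 (13.5%, 7.17% to 22.4%), and the leading 4 lay on chromosome II: bath-29 (1.1), bath-21 (0.83), btb-19 and btb-20 (0.8, under the same peak). F-box genes, also ubiquitin ligase adaptors, had 20 of 322 (6.21%, 3.83% to 9.43%), led by fbxa-185 (1.23), fbxb-7 (1.16), fbxa-213 (0.93) and fbxb-65 (0.86), which lie on the right of chromosome V. Chemoreceptor genes, with a median length of 1643.5 bp, had 35 of 1308 (2.68%, 1.87% to 3.7%), below the background. Of all protein-coding genes of 1 to 2 kb, 3.4% were bound, a share inside that interval. The highest chemoreceptor genes were str-217 and srh-209 (1.16 each), srh-111 (0.88) and srz-32 (0.87). HPL-2 in intestine and in hypodermis lay over 20 and 35 lectin genes and over 4 and 14 MATH and BTB genes. It lay over 5 and 29 F-box genes and over 19 and 47 chemoreceptor genes. Whether reads of near-identical copies in these families were shared among them cannot be read from the list.

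Lists of intestinal work, lipids and detoxification had shares whose intervals all held the background. Of 41 intestinal function genes, which include the vitellogenins, the intestinal GATA factors and brush border genes, 2 were bound (4.88%, 0.596% to 16.5%). They were lbp-6, a fatty acid binding protein gene (0.76), and the yolk protein gene vit-3, whose peak had the lowest score of the list, 0.37. Lipid metabolism genes had 6 of 85 (7.06%, 2.63% to 14.7%), with fasn-1 (1.19), the acyl-CoA synthetase gene acs-1 (0.89), lips-10 (0.86) and acdh-4 (0.58) as the highest. Lysosomal and gut proteases had 2 of 26, asp-19 (0.66) and cpr-2 (0.65). Among genes of detoxification, cytochromes P450 had 3 of 74, UDP-glucuronosyltransferases 2 of 67 and glutathione S-transferases 1 of 46. The cytochromes were cyp-33C1 (0.67), cyp-37B1 (0.56) and cyp-35B3 (0.5). The others were ugt-67 (0.57), ugt-2 (0.47) and gst-25 (0.81).

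Lists of defence genes lay on either side of the background. Antimicrobial peptide and infection response genes had 4 of 72 (5.56%, 1.53% to 13.6%), and each of these short genes lay wholly under its peak: abf-4 (0.73), nlp-31 (0.58), fip-2 (0.54) and fipr-21 (0.46). Genes of this list have a median length of 435.5 bp, and of all protein-coding genes up to 1 kb 2.44% were bound. Lysozyme and saposin-like genes had 0 of 46, with an exact upper limit of 7.71%, so that the intervals of these lists overlap. Histone genes had 0 of 72, major sperm protein genes 0 of 76 and Skp1-related genes 0 of 20, with exact upper limits of 4.99%, 4.74% and 16.8%. Histone and major sperm protein genes have a median length of 384 bp each. Ribosomal protein genes had 1 of 78, rpl-12 (0.53), under a peak of 36 bp, the lowest width of the list.

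Regulators and signalling genes lay near or below the background. Nuclear hormone receptors had 8 of 269 (2.97%, 1.29% to 5.78%), led by nhr-31 (0.96), nhr-241 (0.92), nhr-27 (0.81) and nhr-97 (0.64). Homeobox genes had 3 of 94, ceh-92 (0.71), ceh-32 (0.59, with 0.165% of its body covered) and hmbx-1 (0.51). Helix-loop-helix genes had 2 of 39, the myogenic factor gene hlh-1 (0.79) and hlh-30 (0.62), which encodes the TFEB-like regulator of autophagy. Neuropeptide and insulin genes had 4 of 147 (2.72%), with flp-8 at 0.84 and nlp-99, nlp-52 and nlp-31 at 0.76, 0.59 and 0.58. The median length of this list is 903 bp, and of all protein-coding genes up to 1 kb 2.44% were bound. Neurotransmitter-gated and potassium channel genes had 9 of 156 (5.77%, 2.67% to 10.7%), led by lgc-37 (1.13), the pharyngeal acetylcholine receptor gene eat-2 (0.81), twk-36 (0.78) and lgc-22 (0.61). At an FDR of 0.01, 3 of the 9 channel genes were left (1.92%), below the background of 2.75%. Channel genes have a median length of 4288.5 bp. Heat shock genes had 1 of 53, dnj-27 (0.6).

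Transporters and transthyretin-like genes also stood close to the background. Solute carriers and ABC transporters, with a median length of 4440 bp, had 6 of 103 (5.83%). They were led by slc-17.9 (0.94), pgp-14 (0.81), slc-25A18.2 (0.71) and wht-4 (0.68). The peak of pgp-14 also lies in nhr-27, whose body contains that gene. Transthyretin-like genes, with a median length of 1001 bp, had 3 of 58, of which ttr-59 and ttr-30 shared a peak of score 1.06 and ttr-33 had 0.53. Phosphatase and kinase family genes had 2 of 40, ptp-3 (0.67) and kin-4 (0.56). Among 22 genes of heterochromatin and histone H3 lysine 9 methylation, 1 was bound, hpl-2 itself, the paralogue of hpl-1. Its peak scored 0.62 and covered 56.3% of the gene. No peak of either HPL-2 list lay over hpl-2, which is also so for most protein-coding genes.

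**Figure D4:**
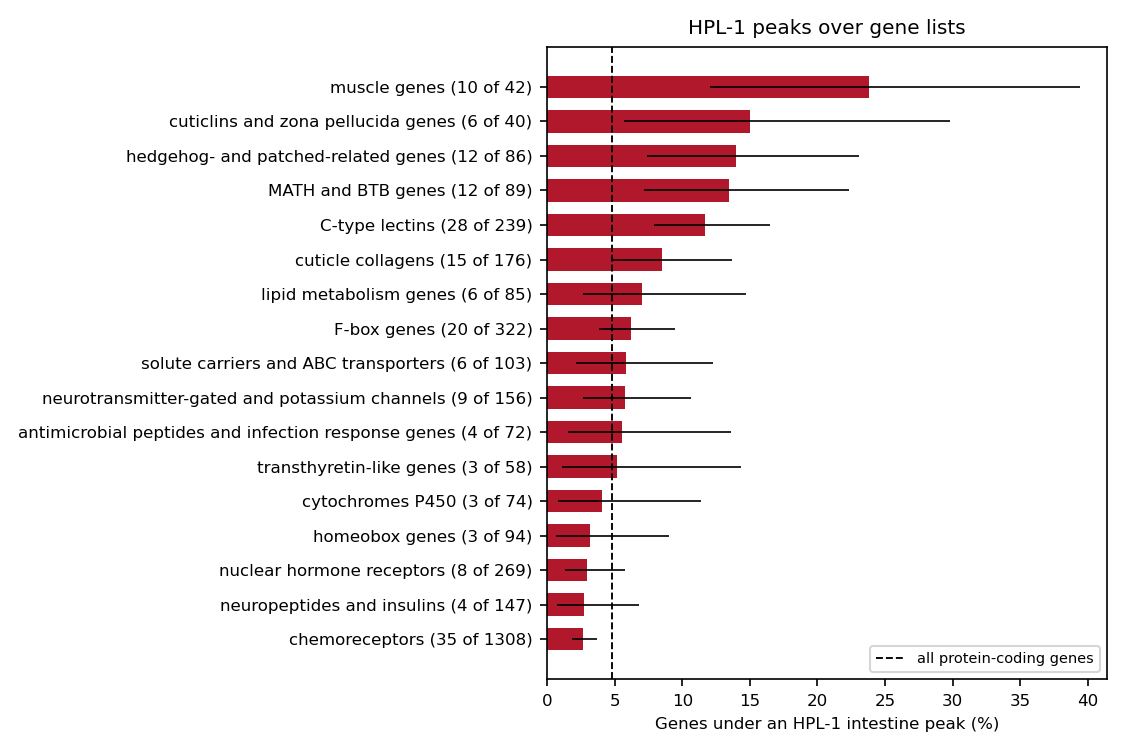
Percent of the genes of each list under an HPL-1 intestine peak, for the 17 lists with at least 3 bound genes, with bound and total counts in the labels and exact 95% binomial intervals as bars. The dashed line is the share of all protein-coding genes, 4.84%. Muscle genes stand highest at 23.8% and chemoreceptors lowest at 2.68%.

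Symbol families outside these lists were screened after the values had been seen and are given as counts only. Those named come from families with at least 5 members under an HPL-1 peak. Calpain protease genes had 5 of 9 members bound: clp-1 (1.0), clp-6 (0.94), clp-8 (0.66), clp-2 (0.56) and clp-7 (0.48). Members of the lido family had 5 of 17, all between 2988300 and 3054321 on chromosome II, of which lido-11 and lido-12 shared a peak of score 1.1 and lido-13 had 1.01. Neprilysin genes had 5 of 23, led by nep-18 (0.87), and gcy genes, which encode receptor and soluble guanylyl cyclases, 5 of 31, led by gcy-23 (1.06). HPL-2 in intestine and in hypodermis lay over 2 and 4 calpain genes, 8 and 6 lido genes, 5 and 4 neprilysin genes and 6 and 3 gcy genes. Because the families were chosen by their HPL-1 counts, these values do not compare the proteins.

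Pseudogenes were bound in a share above that of protein-coding genes, and small RNA genes in a share far below it. Of 1921 pseudogenes, 121 lay under a peak (6.3%, 5.25% to 7.48%), although their median length of 1283 bp is below the 2006 bp of protein-coding genes. Chromosome V held 57 of them, 7.35% of its 776 pseudogenes, against 3.36% (X) to 7.48% (III) on the other chromosomes. The highest scores were those of dct-10 (1.21), Y46H3C.6 (1.19) and Y102A5C.38 (1.16), all on V. Lectin pseudogenes had 6 of 25 bound and chemoreceptor pseudogenes 8 of 320 (2.5%), the same order as in the intact genes of these families. Of 612 transfer RNA genes 1 was bound (0.163%), against 10 by HPL-2 in intestine and 14 by HPL-2 in hypodermis. Of 15363 piRNA genes, which encode the 21 nucleotide guides of germline silencing and lie mostly on chromosome IV, 17 were under a peak (0.111%). On IV itself 12 of 14714 were (0.0816%), while peaks covered 0.658% of that chromosome. In the HPL-2 lists 6 in intestine and 16 in hypodermis were so on IV. For genes this short the covered share of the chromosome is the nearest comparison. These genes lie in dense blocks, so they are not independent of each other, and transfer RNA genes have many near-identical copies. Of 260 microRNA genes 2 were bound, and 0 of 129 small nuclear RNA genes, with an exact upper limit of 2.82%.

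HPL-1 was spread over arms and centres and was densest on the right of chromosome V. Each chromosome was divided into 3 equal parts, of which the outer are called arms and the middle the centre. Arms held 998 peaks (74.1%, 71.7% to 76.5%) on 66.7% of the length, 1.11 times their share of it, and centres 348. The outer parts of a division into 4 held 61.1% on 50% of the length, 1.22 times. Both arms exceeded the centre on chromosome I (87 and 101 peaks, with 50 in the centre), II (121 and 62, with 60), III (63 and 49, with 46) and X (66 and 50, with 44). On IV the left arm held 62 peaks, the centre 60 and the right arm 40. On V the left arm held 87, the centre 88 and the right arm 210, or 30.1 peaks per Mb, against 6.86 on the right arm of IV, the lowest of the 18 arms and centres. HPL-2 in hypodermis was also densest on the right arm of V, at 35.4 peaks per Mb, while HPL-2 in intestine had 21.8 there and its highest density, 34.04, on the left arm of I. Without chromosome V, 72.9% of HPL-1 peaks lay in arms.

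Across whole chromosomes, V had the most peaks, 385 (28.6% of peaks on 20.9% of the length, against 336 and 426 in the HPL-2 lists, which also had most on V), the shortest median gap (23.7 kb), the widest peaks (median 671 bp) and the highest median score (0.7). Chromosomes IV and X had the lowest densities, 9.26 and 9.03 peaks per Mb, and X the longest median gap, 74.2 kb. Peaks over no gene made up 22.5% of those on X, against 13.6% to 16.8% on the other chromosomes. Higher-scoring peaks lay more in arms: 69.4% of the 337 lowest-scoring and 78.04% of the 337 highest-scoring did so. Protein-coding bodies lay under 73.6% of arm peaks and 79.02% of central peaks.

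**Figure D5:**
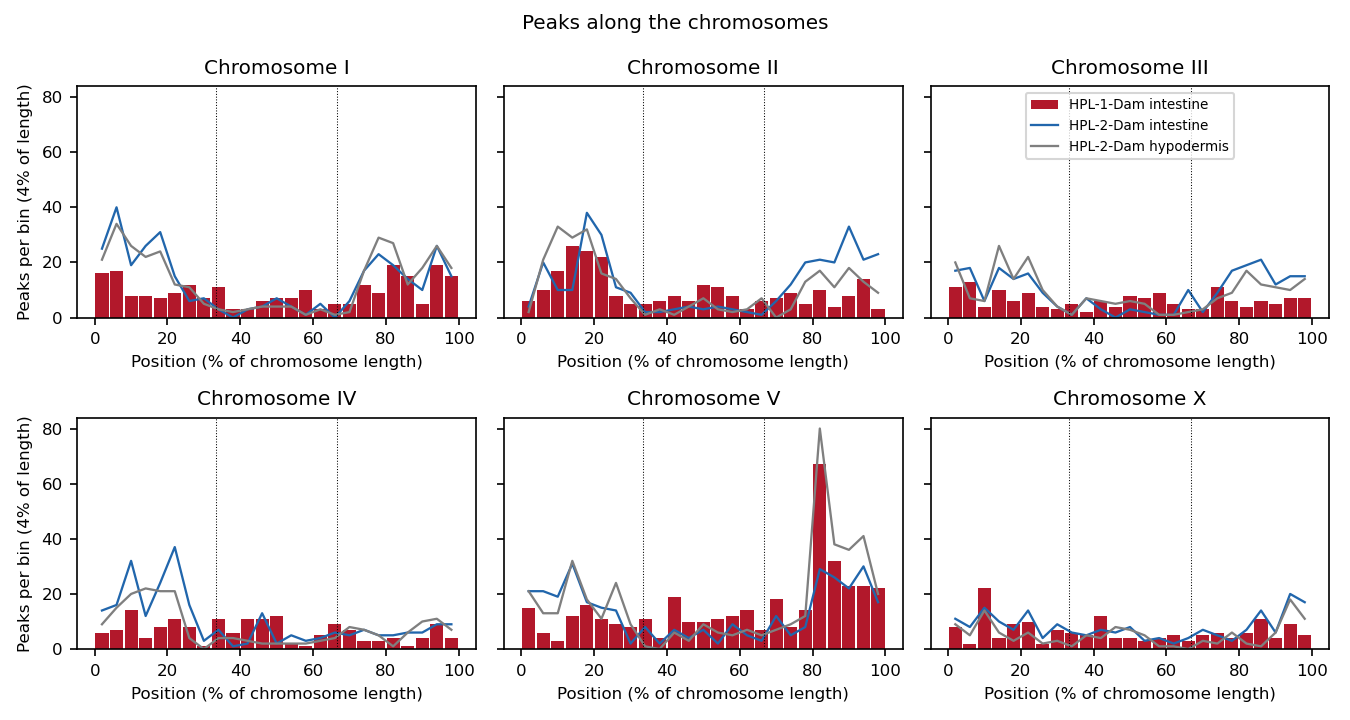
Peaks in each 4% of the length of each chromosome, by peak midpoint, for HPL-1-Dam intestine (red bars), HPL-2-Dam intestine (blue line) and HPL-2-Dam hypodermis (grey line). Dotted lines divide each chromosome into 3 equal parts. HPL-1 has 348 peaks in the centres, against 194 and 183 in the HPL-2 lists, and its tallest bars are on the right of chromosome V, where the grey line is also high.

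Spacing was uneven. The gaps that randomly placed peaks would give were not computed. The median gap between neighbouring peaks was 36.7 kb, with the middle 50% between 8.56 and 101 kb and the longest at 782 kb. Of 1340 gaps, 353 (26.3%) were at most 10 kb, 67 were under 500 bp and 119 exceeded 200 kb. Joining peaks at most 10 kb apart left 993 groups, of which 772 were a single peak. Groups of 3 or more numbered 71 and held 274 peaks.

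The group with the most peaks lay on the right of V, from 18435990 to 18455163, with 10 peaks that covered 12.05 of 19.2 kb and a highest score of 1.28. Its genes were ZK262.8, ZK262.9, ZK228.1 and the pseudogene ZK262.15. The 100 kb window around it held 14 peaks, the most of any, and included the chemoreceptor genes srh-209 and srh-178 and txt-8. The next windows, V 17050001 to 17150000 and V 17410001 to 17510000, held 13 peaks each and 5 bound pseudogenes each, beside the chemoreceptor genes srh-255, srh-132, srh-203 and srh-111. A window of lectin genes on V, 16830001 to 16930000, held 10 peaks over clec-22, clec-25, clec-27, clec-31 and clec-33, the prolyl hydroxylase gene phy-3 and the troponin I gene tni-3. It held 2 peaks of HPL-2 in intestine and 11 of HPL-2 in hypodermis.

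Outside V, the densest window of each chromosome was made of other genes. On I it was 14820001 to 14920000, with 11 peaks over eva-1, maph-1.1, unc-54, frm-1 and ptr-23. On II it was 1630001 to 1730000, with 9 peaks over the F-box and BTB genes fbxc-21, fbxa-184 and btb-8, irld-36 and sdz-18. On III, 730001 to 830000 held 6 peaks over pat-12, idpp-1, nlp-52, dac-1 and clec-149. On IV, 3950001 to 4050000 held 7 over clec-73, clec-78, hlh-30 and F35F11.2. On X, 1680001 to 1780000 held 8 peaks over 2 protein-coding genes, meg-4 and the elongin C gene elc-2.

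Beside HPL-2, the HPL-1 profile had the least sequence covered, the longest median gap and the largest central share. The HPL-1 list is also the shortest, with 1346 peaks, against 1665 for HPL-2 in intestine and 1572 for HPL-2 in hypodermis, and fewer peaks lengthen gaps and thin out groups by construction. Its scores were lower as well, with a median of 0.66, against 0.95 and 1.65. Lists of equal size keep every HPL-1 peak and drop only the lowest-scoring HPL-2 peaks, so they are not matched in score. HPL-1 peaks covered 0.952% of the genome, against 1.35% for HPL-2 in intestine and 1.74% for HPL-2 in hypodermis. Groups of 3 or more peaks held 20.4% of HPL-1 peaks, against 30.7% and 33.8%. With the 1346 highest-scoring peaks of each list, they held 20.4% for HPL-1, against 26.9% and 28.5%, and the median gap was 36.7 kb for HPL-1, against 27.4 and 24.02 kb. The longest gap was 782 kb for HPL-1, against 1185 and 1648 kb with the lists as deposited. Centres held 25.9% of HPL-1 peaks (23.5% to 28.3%), against 11.7% (10.1% to 13.3%) and 11.6% (10.1% to 13.3%). Peaks over protein-coding genes that held a gene end made up 27.4% for HPL-1 (24.7% to 30.3%), against 22.1% (19.9% to 24.4%) and 36.9% (34.1% to 39.6%). With lists of equal size the HPL-2 intestine share was 24.9% (22.3% to 27.5%), whose interval overlaps that of HPL-1, and the HPL-2 hypodermis share 38.5%. The median widths were 616 bp for HPL-1, against 678 and 948 bp. With lists of equal size the width difference, HPL-1 minus HPL-2, was -117.5 bp in intestine and -374 bp in hypodermis. As deposited it was -62 and -332 bp. Genes over 8 kb were bound in 14.7% for HPL-1, against 22.1% and 17.5%. Both intestine lists share the GFP-Dam intestine control, no list holds replicate values, and these differences were therefore not tested.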

How the data were processed

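Genomic DNA of L4 larvae, 200 ng per library, was digested with DpnI and DpnII and amplified, per the labels' protocols. The submitters' processing notes name the WBcel235/ce11 assembly, R 3.4.3, Bowtie2 2.3.4 and SAMtools 1.9. For peak caller and depth nothing is given in the sources used here. The authors deposited 1 peak list per fusion, called on an average of GATC profiles over Dam at an FDR of 0.05, per the file names. Each deposited line gives other values, namely start, end and FDR, and a score, the authors' own. An averaged list shows no replicate error. Dam acts at GATC sites, which limits the resolution of peak edges, and these were not checked against a genome.

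Peaks were matched to RefSeq genes of the WBcel235 assembly (46890 on the 6 chromosomes) with Python 3.11.15, pandas 2.3.3 and scipy 1.17.1. Sharing 1 bp or more with a peak made a gene body bound. Chromosome extents, 100.27 Mb in all, were the furthest gene or peak ends. Arms were the outer 2 of 3 equal parts, by peak midpoint. The overlap code was tested on simulated peaks. Named genes were those under the 15 highest and 5 widest peaks, up to 4 highest per list with at least 3 bound, the 5 genes with the most peaks, the 5 highest genes covered whole, and genes of the densest 100 kb windows. Genes of lists with fewer bound, of symbol families, and others with many peaks were named after their values were seen. Members and lists were chosen with earlier results of these data known. Alternatives were a stricter FDR, joined peaks, other overlap and arm rules, and lists of equal size. Leaving out chromosome V was added after the data had been seen.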

Additional observations from a re-analysis of the deposited data

How the results depend on the processing

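No paired analysis was possible because the deposited list is an average with no value per replicate, and leaving out a replicate was not possible for the same reason. At an FDR of 0.01 the HPL-1 list kept 723 peaks over 589 kb and 550 protein-coding genes, with a median width of 701 bp, a median gap of 68.6 kb and 77.9% of peaks in arms. Fewer peaks lengthen the gaps by construction. The share of peaks over protein-coding genes was 67.1% when the midpoint had to lie inside a body, and the share with a gene end was 39.6% when 200 bp of slack was given. With 4 equal parts per chromosome in place of 3, the outer parts are smaller, 50% of the length in place of 66.7%, and held 61.1% of peaks. Without chromosome V the median gap was 44.5 kb. With equal numbers of the highest-scoring peaks, the share of peaks with a gene end was 2.56 percentage points higher for HPL-1 than for HPL-2 in intestine, against 5.33 points with the lists as deposited, and the cause was not tested. The difference in median width, HPL-1 minus HPL-2 in intestine, went from -62 bp as deposited to -117.5 bp with equal numbers. Apart from this and the counts of single gene lists, the other values under an alternative stayed within the interval of the value as reported (for differences from HPL-2 shares, of the HPL-2 share) or within 1.5 times of it. Among them, the number of gene lists above the background was 12 with the stricter FDR and 12 when genes were extended by 1 kb, against 16. Helix-loop-helix, intestinal function and channel genes dropped out under both, phosphatase and kinase family genes under the stricter FDR and transporters under the extension, and no list was added. Counts of single lists moved by over 1.5 times in 19 of 30 lists with the stricter FDR, as in cuticlins (2, against 6) and channels (3, against 9), and in 11 of 30 with the extension. Collagens had 9 and 26, against 15. Fewer peaks and wider genes change such counts by construction. Depth behind the peaks is unknown, so an unbound gene may lie below detection.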
